A study of Mus musculus with 4 samples.

Results

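The genes measured here describe how cultured mouse astrocytes of the wild type (WT) responded to forskolin (FSK), a small molecule that switches on adenylyl cyclase. The response of a gene was its log2 signal on the FSK array minus its log2 signal on the vehicle array, with 1 array on each side. Of 41345 probe sets on the array, 23521 carried 1 gene symbol, and they gave 22180 genes after the probe set with the highest mean over the 4 arrays of the series was kept for each gene. The 1820 probe sets with several symbols and the 16004 with none were left out. Genes were then separated by signal. The 11286 genes whose mean over the 4 arrays lay at or above 5.81, the median signal of the probe sets, are called bright, and the other 10894 are called dim. The genes beside this line were *Asic4* at 5.81 on the dim side and *Olfr525* at 5.81 on the bright side. All cultures came from C57BL/6J pups of postnatal day 1 to 3. Mixed glia of the cortex were grown for about 2 weeks in a medium with granulocyte-macrophage colony-stimulating factor, floating microglia were shaken off, and the attached cells were replated. WT cells received 25 µM FSK for 2 h or vehicle (0.1% DMSO), which the labels mark as time 0 without saying whether it was left on for as long. The remaining 2 arrays held CRTC3 KO astrocytes, which lack the coactivator CRTC3, under the same FSK and vehicle conditions, and are used only for comparison. The number of pups or cultures behind an array was not given in the sources used here. With 1 array per condition there was no replicate error and no test, so that each value below compares 2 arrays. A gene is called only by the size of its difference, and whether conditions overlap could not be judged.

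Forskolin acts directly on adenylyl cyclase and raises cyclic AMP without the need for a receptor. Cyclic AMP activates protein kinase A, which phosphorylates CREB and inhibits the salt-inducible kinases. The CRTC coactivators are then dephosphorylated, enter the nucleus and join CREB at the cyclic AMP response element (CRE), whose full letters are TGACGTCA and whose core is TGACG. In astrocytes the pathway lies downstream of noradrenaline, adenosine and neuropeptide receptors and is known for its effects on glycogen, lactate release, cell shape and secreted factors.

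The labels were first set against the signals. *Crtc3* stood at 7.75 and 8.14 on the WT vehicle and FSK arrays and at 4.92 and 5.49 on the CRTC3 KO arrays, in the direction of the genotype labels. Of 16 astrocyte markers 14 were bright, among them *Gfap*, *Slc1a3*, *Aqp4* and *Aldh1l1*, and their median response was 0.02. All 14 measured markers of microglia and macrophages were bright as well, so that RNA of myeloid cells was present in these cultures. The summed linear signal of the myeloid markers was 13035 on the vehicle array and 12730 on the FSK array, with a median response of -0.01. The lowest of them was *Cx3cr1*, the fractalkine receptor, at -0.40. Of 12 markers of fibroblasts and mural cells 10 were bright, with a summed signal of 21839 and 22278, so genes typical of such cells were expressed too. The astrocyte markers summed to 12456 and 12702. Sums over different genes do not give the share of a cell type. Which cells gave the responses below was not tested. In such bulk RNA, fewer cells of a type and less RNA per cell cannot be told apart. The 4 arrays had nearly equal medians over the gene probe sets, from 5.79 to 5.82.

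Most genes differed little between vehicle and FSK. Over the 22180 genes the median response was 0.00 with an SD over genes of 0.22. At least 2-fold higher signal with FSK was measured for 27 genes (0.122%) and at least 2-fold lower signal for 13 (0.0586%). The line between bright and dim genes divided these sets unevenly. The 2-fold sets held 11 bright genes with higher signal (0.0975% of the bright genes) and 3 with lower signal (0.0266%), against 16 (0.147%) and 10 (0.0918%) of the dim genes. At a difference of 1.5-fold, which is 0.585 on the log2 scale, 83 bright genes were higher (0.735%) and 46 lower (0.408%), and 189 dim genes were higher (1.73%) and 122 lower (1.12%). The genes nearest to the 2-fold line were *H4c14* at 1.02 and *Thap6* at 1.00 on the higher side, and *Olfr799* at -1.03 and *Gm3993* at -0.99 on the lower side.

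**Figure D1:**
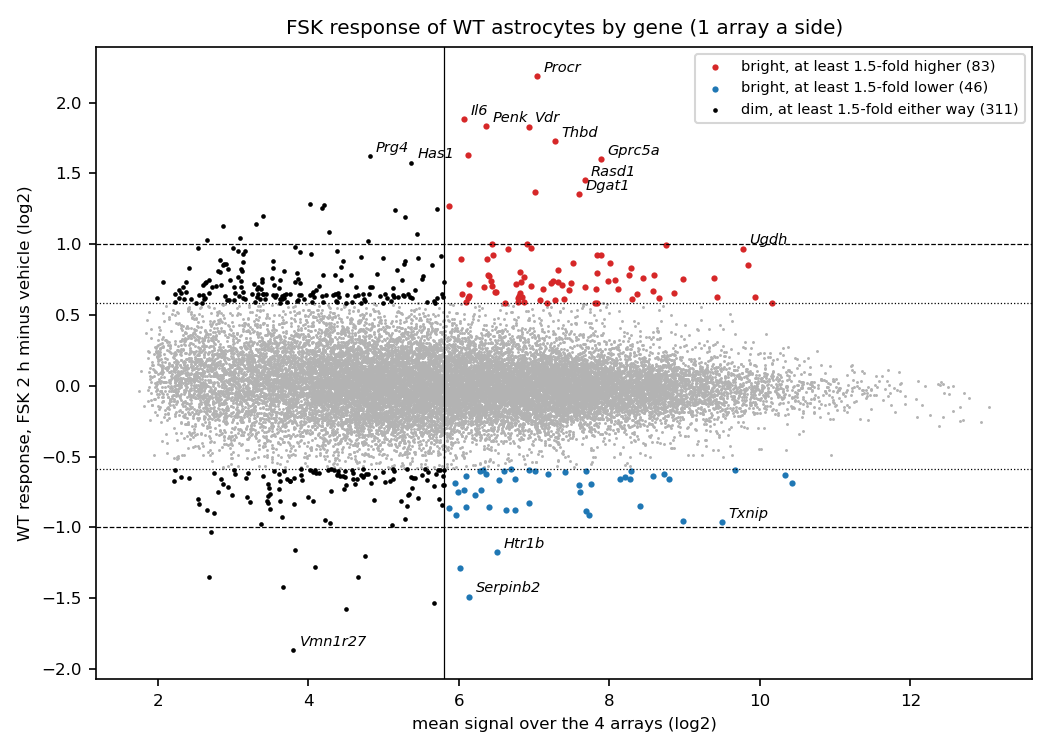
The WT response of each of the 22180 genes (FSK 2 h minus vehicle, log2, y axis) against its mean signal over the 4 arrays (log2, x axis). The vertical line is the median signal of 5.81, dotted lines mark 1.5-fold and dashed lines 2-fold. Red and blue points are the 83 higher and 46 lower bright genes, and black points are dim genes past 1.5-fold.

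The spread of the response depended on the signal. In the dimmest decile of the genes the SD of the response was 0.26, and in the brightest decile it was 0.15. In the dimmest decile 71 genes were at least 1.5-fold higher and 23 lower, and in the brightest decile 12 and 8. The median response of the dimmest decile was 0.06 and that of the brightest -0.02. For the 968 genes with exactly 2 probe sets, the responses differed between the probe sets with an SD of 0.290. It was 0.228 for the 280 genes with both probe sets bright. Both probe sets were read on the same 2 arrays, so these values leave out any variation between arrays or cultures. The dim genes past a fold line thus stood among wider differences than the bright ones.

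**Figure D2:**
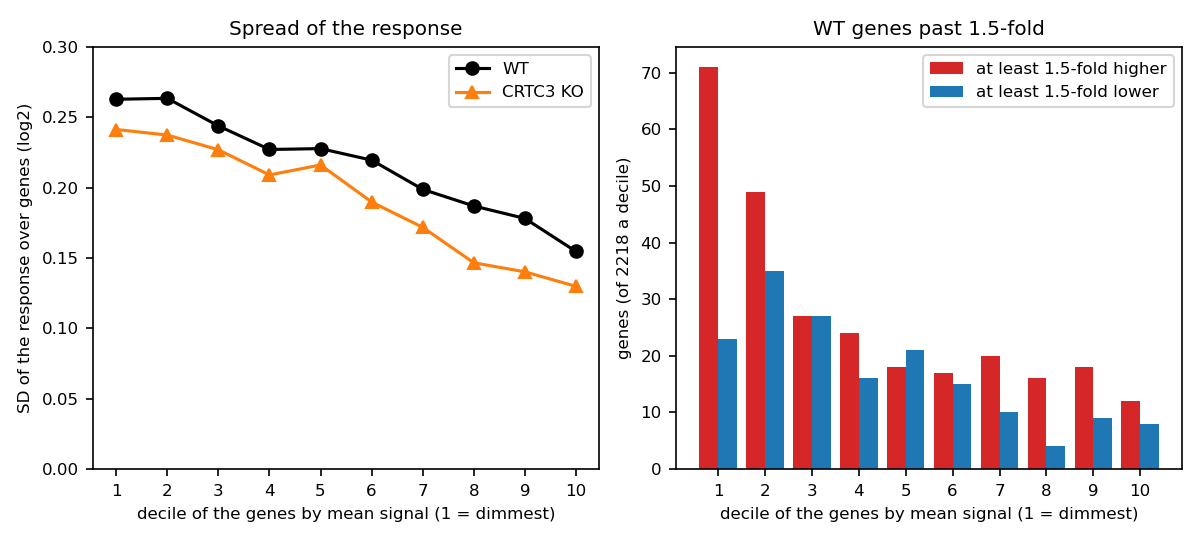
Left, SD of the response over genes (log2) in each decile of the genes ordered by mean signal, for WT and CRTC3 KO; the WT value falls from 0.26 in the dimmest decile to 0.15 in the brightest. Right, number of WT genes at least 1.5-fold higher (red) or lower (blue) in each decile, 71 and 23 in the dimmest.

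The arrays of CRTC3 KO astrocytes were not used to choose these genes on their response, although all 4 arrays were normalised together and entered the mean signal. Of the 83 bright genes at least 1.5-fold higher in WT, 72 (86.7%) were above 0 in the response of CRTC3 KO as well, against 47.1% of all bright genes. Their median response in CRTC3 KO was 0.23, and 9 of them also passed 1.5-fold there, which 0.257% of all bright genes did. Of the 46 bright genes at least 1.5-fold lower in WT, 30 (65.2%) were below 0 in CRTC3 KO, against 52.8% of all bright genes, and 7 passed 1.5-fold in that direction, against 0.213%. The dim genes gave another picture. Of the 189 dim genes at least 1.5-fold higher in WT, 81 (42.9%) were above 0 in CRTC3 KO, against 49.2% of all dim genes, and their median there was -0.04. Of the 122 lower dim genes, 64 (52.5%) were below 0, against 50.7% of all dim genes. Bright genes that were higher in WT therefore mostly had the same direction in the second pair of arrays, and dim genes did not. Their size there was mostly smaller, but they were picked by their size in WT, so the difference in size was not tested. Vehicle levels of some also differed between WT and CRTC3 KO, in both directions. *Fgf7* stood at 7.95 and 5.94 and *Il1b* at 5.76 and 6.85.

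**Figure D3:**
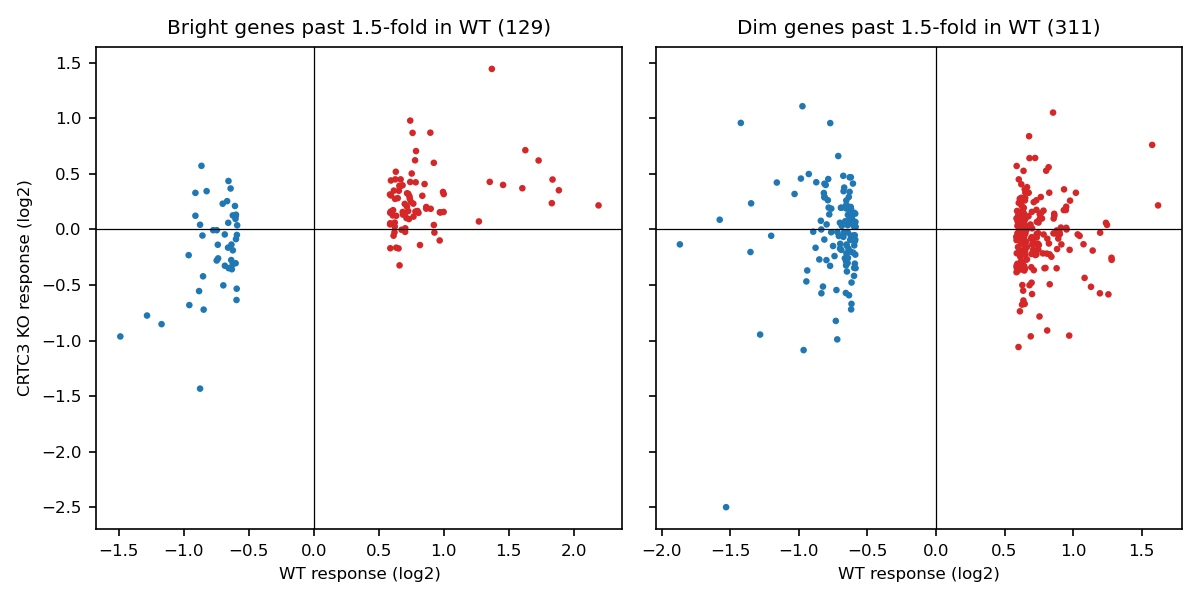
Response in CRTC3 KO (log2, y axis) against response in WT (log2, x axis), each over 1 pair of arrays, for genes at least 1.5-fold higher (red) or lower (blue) in WT. Left, bright genes, of which 72 of the 83 higher ones lie above 0 in CRTC3 KO; right, dim genes, of which 81 of 189 do.

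The promoters of the genes were read for the CRE. RefSeq windows (GRCm38.p6) of 300 bases, from 250 before to 50 after a gene's start, were matched by gene ID for 16918 of the 22180 genes, with more than 1 window for some. TGACG on either strand (TGACG or CGTCA) was found in a window of 31 of 57 matched bright genes at least 1.5-fold higher (54.4%), against 35.5% of all 8904 matched bright genes and 7 of 31 lower bright genes (22.6%). Of the dim genes at least 1.5-fold higher, 11.9% held it, against 17.3% of all dim genes. Windows rich in CpG hold these letters more often, so the shares were also read within 3 groups of the bright genes by CpG count. In the group with the fewest CpG they were 7 of 22 higher genes (31.8%) against 25.5% of all bright genes. They were 11 of 19 (57.9%) against 40.7% in the middle group and 13 of 16 (81.2%) against 40.7% in the group with the most. These are few genes, and the differences were not tested. The higher genes had a mean of 1.09, 1.47 and 1.25 windows in the 3 groups, against 1.37, 1.25 and 1.21 for all bright genes. The full TGACGTCA was in windows of 3 of the 57 genes (5.26%), against 3.57% of bright genes. Over all 32851 windows of the table, 20.8% held the core and 1.79% the full letters, and each full CRE also counts as a core. A match of letters is a description of the window and not a site in use.

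Of the 27 genes at least 2-fold higher, 17 had a window, and 7 of these held a core (41.2%), against 26.9% of all matched genes. Their matches are shown. The others, among them *Penk*, *Vdr*, *Thbd*, *Gprc5a* and *Rasd1*, had no match or no window. Each line gives 60 bases around the match nearest upstream of the start, 5′ to 3′ on the strand of the gene, with every core or full CRE in it in capitals. *Procr* lies at chr2:155750986-155751045 (plus strand), *Il6* at chr5:30012951-30013010 (plus strand), *Has1* at chr17:17855238-17855297 (minus strand), *Cxcl1* at chr5:90891023-90891082 (plus strand), *Apold1* at chr6:134981921-134981980 (plus strand), *Tac1* at chr6:7554990-7555049 (plus strand) and *Svs3b* at chr2:164256834-164256893 (minus strand).
Procr: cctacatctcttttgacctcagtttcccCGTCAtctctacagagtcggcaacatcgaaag
Il6: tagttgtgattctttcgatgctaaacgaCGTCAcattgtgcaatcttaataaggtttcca
Has1: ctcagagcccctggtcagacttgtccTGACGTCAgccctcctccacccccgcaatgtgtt
Cxcl1: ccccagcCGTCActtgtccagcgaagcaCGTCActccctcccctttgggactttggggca
Apold1: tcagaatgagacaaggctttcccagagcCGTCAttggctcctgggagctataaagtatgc
Tac1: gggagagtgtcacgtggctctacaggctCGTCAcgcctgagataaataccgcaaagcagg
Svs3b: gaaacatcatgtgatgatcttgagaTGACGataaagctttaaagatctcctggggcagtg
The letters start at -203 from the gene's start in *Procr*, -135 in *Il6*, -83 in *Has1*, -215 and -194 in *Cxcl1*, -52 in *Apold1*, -43 in *Tac1* and -225 in *Svs3b*, and *Tac1* held another core at -197, outside the bases shown. *Has1* was the only one of these with the full CRE.

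A second set shows bright genes between 1.5-fold and 2-fold higher that are described below, picked as examples after their values were seen. All hold a match because only windows with one are shown. Of the 57 bright genes at least 1.5-fold higher with a window, 31 held a core. *Uap1* lies at chr1:170174994-170175053 (minus strand), *Cebpb* at chr2:167688834-167688893 (plus strand), *Nfil3* at chr13:52981067-52981126 (minus strand), *Btg2* at chr1:134079288-134079347 (minus strand), *Nr4a2* at chr2:57124083-57124142 (minus strand) and *Fos* at chr12:85473796-85473855 (plus strand).
Uap1: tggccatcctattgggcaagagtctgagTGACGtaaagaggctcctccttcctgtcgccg
Cebpb: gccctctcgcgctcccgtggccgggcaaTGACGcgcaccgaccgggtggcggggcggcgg
Nfil3: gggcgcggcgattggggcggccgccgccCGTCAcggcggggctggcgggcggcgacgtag
Btg2: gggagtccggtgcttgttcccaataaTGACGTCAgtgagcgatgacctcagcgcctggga
Nr4a2: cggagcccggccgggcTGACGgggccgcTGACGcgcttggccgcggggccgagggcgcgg
Fos: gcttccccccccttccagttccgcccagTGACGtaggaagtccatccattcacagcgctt
*Btg2* held the full CRE. *Fos*, a long-known target of CREB, held the core at -129 and -66, and *Nr4a2* at -200, -144, -123 and -111, of which the line of *Fos* shows the last and that of *Nr4a2* the last pair. *Cebpb* and *Uap1* also held cores outside the bases shown.

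The largest response of all genes belonged to the protein C pathway, which limits clotting and inflammation at cell surfaces. *Procr*, the protein C receptor, stood at 6.52 with vehicle and 8.71 with FSK, 4.57-fold higher. *Thbd*, thrombomodulin, which binds thrombin and turns it towards protein C, stood at 7.08 and 8.81, 3.32-fold higher. Both partners of this receptor system were thus bright and among the 5 highest of all genes. Some other members of the list had lower signal with FSK. *Serpinb2*, an inhibitor of the urokinase plasminogen activator, stood at 7.48 and 5.99, 2.81-fold lower and the lowest of the bright genes. *Plaur*, the urokinase receptor, had a response of -0.53 and *F3*, tissue factor, which starts clotting, of -0.49. The plasminogen activators themselves, *Plau* and *Plat*, had 0.28 and 0.18. Of the 15 measured genes of this list, 2 were at least 1.5-fold higher and 1 lower, against 1.23% and 0.757% of all genes. The median response of the 10 bright members of this coagulation and fibrinolysis list was 0.16, against -0.01 over all bright genes. The pathway lists were drawn up with earlier results of these data known, so such counts are no result about them.

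Among cytokines, single genes were far from 0 and their families were not. *Il6*, a cytokine of the acute phase that astrocytes release, stood at 5.68 and 7.56, 3.69-fold higher. The median of the 11 genes of its family and receptors, all bright, was 0.01. The receptor chains *Il6ra* and *Il6st* had responses of 0.00 and 0.06, and *Osm*, oncostatin M, had 0.54. *Il1b*, an inflammatory cytokine made mainly by myeloid cells, stood at 5.76 and 7.13, 2.58-fold higher, and *Tnf*, another such cytokine, at 6.80 and 5.95, 1.81-fold lower. *Il1b* was the only gene of the 11 bright ones past 2-fold with at least the same size of response in CRTC3 KO, 1.45 against 1.37 in WT. *Cxcl1*, a chemokine for neutrophils, stood at 5.64 and 6.91, 2.41-fold higher, and *Ccl3*, a chemokine of macrophages, at 7.35 and 6.47, 1.83-fold lower. The 12 bright chemokines had 6 responses above 0 and 6 below, with a median of 0.00, and 46.5% of all bright genes were above 0. The 14 genes of NF-kB feedback were all within 1.5-fold, the highest being *Nfkbie* at 0.47 and the lowest *Tnip3* at -0.22. Most genes were, since 1.23% of all genes were at least that much higher and 0.757% lower.

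Further genes typical of myeloid cells were found at both ends of the response. On the higher side, *Cd14*, the co-receptor for lipopolysaccharide, stood at 9.24 and 10.01, a response of 0.77, and *Tlr5*, the flagellin receptor, at 6.26 and 7.04, a response of 0.78. *Trem1*, an amplifier of myeloid activation, had 0.74, *Cd86*, a costimulatory ligand, 0.72, and *Slc15a3*, an endolysosomal transporter of histidine and peptides, 0.79. In CRTC3 KO the responses of *Trem1*, *Slc15a3* and *Tlr5* were 0.98, 0.71 and 0.62, and those of *Cd86* and *Cd14* were 0.33 and 0.23. On the lower side were *Ikzf1*, a lymphoid and myeloid transcription factor, at -0.60, *Lcp2*, an adaptor of immune receptors, at -0.66 and *Cd48*, an adhesion ligand, at -0.62. Within a list of 17 Toll-like receptors and partners that was added after values were seen, *Tlr7* had -0.52, *Cd180* -0.56 and *Tlr4* -0.27, so that members lay on both sides. The marker list of these cells, given above, had a median of -0.01, and the part of myeloid cells in these values was not tested.

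**Figure D4:**
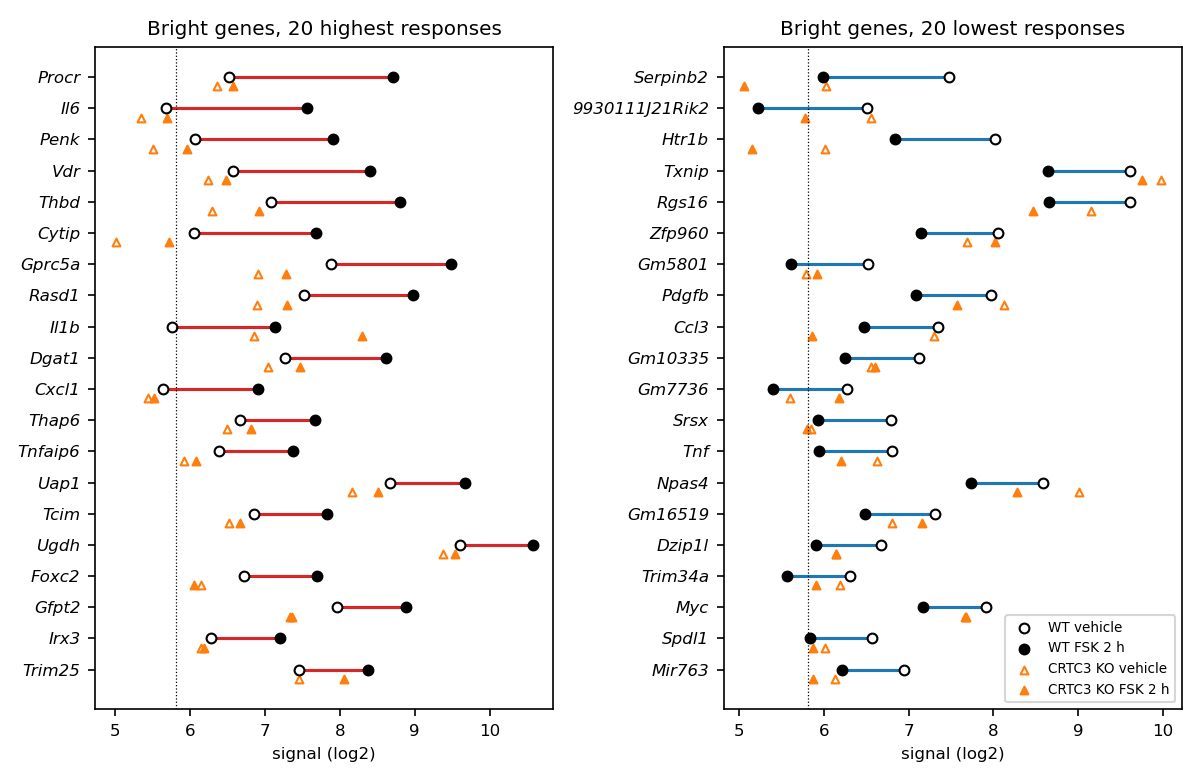
Signal (log2, x axis) of the 20 bright genes with the highest (left) and the 20 with the lowest (right) WT response. Circles are WT arrays (open vehicle, filled FSK) joined by a line, triangles are CRTC3 KO arrays, and the dotted line is the median signal of 5.81. *Procr* moves from 6.52 to 8.71 and *Serpinb2* from 7.48 to 5.99, and for *Il1b* the triangles are as far apart as the circles.

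Neuropeptide genes, several of which are classical CREB targets in neurons and endocrine cells, had the highest median of the lists. *Penk*, the precursor of the enkephalins, stood at 6.07 and 7.91, 3.57-fold higher. *Tac1*, the precursor of substance P, stood at 4.92 and 6.16, 2.36-fold higher, and was dim, above the median signal on the WT FSK array only. Of 20 measured members 14 were above 0, as were 49.6% of all genes, and the median of all was 0.21, against 0.00 over all genes. The 7 bright members had a median of 0.32, with *Cartpt* at 0.40, *Chgb* at 0.37, *Npy* at 0.32 and *Vgf* at 0.32. *Scg3*, a granin of secretory granules, was the only bright member below 0, at -0.14. *Crh* and *Pomc*, which are dim here, were lowest at -0.28 each. No member apart from *Penk* and *Tac1* reached 1.5-fold, where 1.23% of all genes were higher and 0.757% lower. Under a floor at the median signal *Tac1* had 0.35, which is under 1.5-fold.

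Some genes of the hyaluronan matrix had higher signal with FSK, and others differed little. *Has1*, a hyaluronan synthase, stood at 5.23 and 6.81, 2.98-fold higher, and *Prg4*, which encodes the lubricant lubricin, at 4.75 and 6.37, 3.07-fold higher. Both were dim and reached the median signal on the WT FSK array only. *Tnfaip6*, a hyaluronan-binding protein that transfers heavy chains to it, was bright and stood at 6.38 and 7.38, a response of 1.00. *Vcan*, versican, a proteoglycan that binds hyaluronan, stood at 8.10 and 8.77, a response of 0.68. *Has2*, the synthase with a bright signal, had a response of 0.25 and *Cd44*, the receptor for hyaluronan, of -0.13. The list of 13 measured genes had 4 members at least 1.5-fold higher and none lower, against 1.23% and 0.757% of all genes. It was drawn up with earlier results of these data known, so this count is no result about the list. Under a floor at the median signal, *Has1* had 1.00 and *Prg4* 0.56, which is under 1.5-fold. The 7 bright members had a median of -0.01, which became 0.25 when genes above the median signal on at least 1 array were counted. The lowest were *Hapln1* at -0.30 and, among bright members, *Hyal2*, a hyaluronidase, at -0.27.

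The enzymes that make the sugar nucleotides for hyaluronan stood beside them. This list of 11 measured genes, all bright, was added after values were seen. *Uap1*, which makes UDP-N-acetylglucosamine, stood at 8.67 and 9.67, a response of 0.99, and *Ugdh*, which makes UDP-glucuronic acid, at 9.60 and 10.57, a response of 0.97. *Gfpt2*, an isoform of the first enzyme of the hexosamine pathway, stood at 7.96 and 8.89, a response of 0.93. These 3 genes give the precursors of both sugars of hyaluronan. The other isoform *Gfpt1* had 0.33, *Gnpnat1* 0.22 and *Pgm3* 0.17, and *Ugp2*, which makes UDP-glucose, was lowest at -0.28. The median over the 11 genes was 0.17. In CRTC3 KO the responses of *Uap1*, *Ugdh* and *Gfpt2* were 0.34, 0.15 and -0.03.

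Among matrix proteases, *Adamts9*, which cleaves versican, was bright and stood at 7.87 and 8.73, a response of 0.86. *Adamts4*, an aggrecanase, was dim and stood at 5.72 and 6.63, a response of 0.91. *Tll1*, a metalloprotease of the tolloid type, had 0.78 and *Tgm2*, a transglutaminase that crosslinks proteins, also 0.78. Of 24 ADAMTS, MMP and TIMP genes 16 were above 0, against 49.6% of all genes, and the lowest was the dim *Mmp9* at -0.32. The 28 bright collagen genes had a median of 0.01 and none of the 44 collagen genes measured reached 1.5-fold. Few genes did, 1.23% of all genes on the higher side and 0.757% on the lower.

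Receptors and regulators of G proteins gave several of the bright genes. *Gprc5a*, an orphan receptor, stood at 7.88 and 9.48, 3.04-fold higher, and *Rasd1*, a small GTPase first known from its induction by dexamethasone, at 7.53 and 8.98, 2.74-fold higher. *Rgs1*, which shortens signalling of Gi and Gq proteins, stood at 6.28 and 7.18, a response of 0.90, and *Rgs2*, which acts on Gq, had 0.40. In the opposite direction *Rgs16*, of the same family, stood at 9.61 and 8.65, a response of -0.96. The 19 bright members of this list had a median of -0.05, with 3 at least 1.5-fold higher and 1 lower, against 0.735% and 0.408% of all bright genes. *Htr1b*, a serotonin receptor coupled to Gi, stood at 8.02 and 6.84, 2.25-fold lower, and was 1 of the 3 bright genes past 2-fold in that direction. The next lowest of the 18 glial receptors measured was the dim *Grm3* at -0.22. *Cytip*, which binds the cytohesin exchange factors, stood at 6.05 and 7.68, 3.09-fold higher.

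The components of the cyclic AMP pathway itself were all within 1.5-fold. None of the 9 adenylyl cyclases, 16 phosphodiesterases, 10 protein kinase A genes or 11 genes of CREB, CRTC and SIK reached 1.5-fold in either direction, as was true of most genes, since 1.23% of all genes were that much higher and 0.757% lower. The highest of the last group were *Sik1*, a salt-inducible kinase and known CREB target, at 0.51, *Crem*, whose locus also encodes the repressor ICER, at 0.46 and *Crtc3* at 0.39. *Creb1* had -0.09 and *Crtc2* -0.02. Of the phosphodiesterases, which degrade the nucleotide, *Pde3b*, *Pde4b*, *Pde7b*, *Pde4d* and *Pde7a* lay between 0.28 and 0.33, and *Pde1b* was lowest at -0.23. Among the cyclases *Adcy2* was highest at 0.33 and *Adcy8* lowest at -0.31, and of the kinase genes the inhibitor *Pkib* was lowest at -0.48.

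Immediate early factors, often taken as first targets of CREB, were spread on both sides of 0. *Nr4a2*, an orphan nuclear receptor, stood at 9.83 and 10.46 and *Fos* at 9.18 and 9.81, a response of 0.63 for both. *Ier3*, an early response gene of cell survival, stood at 9.98 and 10.57, a response of 0.59. *Nr4a1* and *Nr4a3* had 0.11 and 0.19. *Jun*, the partner of Fos in AP-1, stood at 8.91 and 8.25, a response of -0.66, while *Junb* had 0.33. The factors *Egr1*, *Egr2* and *Egr3* had -0.05, -0.35 and -0.23. Of 18 bright members 11 were above 0, against 46.5% of all bright genes. Their median was 0.10, against -0.01 over all bright genes. Of the 19 members measured, 3 were at least 1.5-fold higher and 1 lower, against 1.23% and 0.757% of all genes. *Npas4*, an early factor that in neurons follows activity, stood at 8.59 and 7.74, a response of -0.85. *Btg2*, an antiproliferative early gene, stood at 8.05 and 8.70, a response of 0.65.

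Other transcription factors past 1.5-fold came from many families. *Vdr*, the vitamin D receptor, stood at 6.58 and 8.41, 3.56-fold higher. It was the only one past 1.5-fold of the 24 nuclear receptors listed apart from the NR4A genes, and the next was *Ppard* at 0.36. Over all genes, 1.23% were that much higher and 0.757% lower. The C/EBP factors *Cebpd* and *Cebpb*, which drive acute phase genes, had responses of 0.81 and 0.68, the second from 7.72 to 8.41. *Cebpa* of the same family had -0.47. *Nfil3*, a bZIP repressor tied to the clock, stood at 7.81 and 8.55, a response of 0.74, and the core clock gene *Arntl* was lowest in that list at -0.49. Of the Kruppel-like factors, *Klf4* stood at 8.18 and 9.02, a response of 0.83, and *Klf6* and *Klf10* had -0.63 and -0.62. The factors *Foxc2*, *Irx3*, *Gata2*, *Ets2*, *Jdp2*, *Tbx3* and *Glis1* were higher with responses between 0.59 and 0.97. A second probe set of *Irx3* gave -0.09, and *Tcim*, a regulator of Wnt signalling at 0.97, had a second probe set at -0.28. *Myc* stood at 7.92 and 7.17, a response of -0.75, and the ID factors *Id1*, *Id2* and *Id3* had -0.36, -0.20 and -0.26.

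In metabolism the highest response was that of *Dgat1*, which makes triglyceride from diacylglycerol, at 7.26 and 8.62, 2.56-fold higher. *Dgat2*, which catalyses the same step, had 0.01, and no other of the 17 genes of this list reached 1.5-fold. Over all genes, 1.23% were that much higher and 0.757% lower. The bright members had a median of 0.14, with *Abhd5* and *G0s2*, an activator and an inhibitor of lipolysis, at 0.26 and 0.25. Among genes of glycogen and glucose use, *Slc16a3*, a lactate transporter, stood at 6.78 and 7.40, a response of 0.62, and *Slc2a3*, a glucose transporter, had 0.55. Of 20 members 15 were above 0, against 49.6% of all genes, and the bright median was 0.10. *Got1*, the cytosolic aspartate aminotransferase, had 0.75, *Hilpda*, a lipid droplet protein, 0.72 and *Ddit4*, an inhibitor of mTORC1, 0.61. *Txnip*, which limits glucose uptake, stood at 9.61 and 8.65, a response of -0.96, and *Pdk4*, which restrains pyruvate dehydrogenase, at 7.47 and 6.76, a response of -0.70. The 14 bright genes of cholesterol metabolism had a median of -0.01 and a range of all members from -0.21 to 0.23.

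Growth factor genes were found at both ends. *Fgf7*, a factor of mesenchymal cells for epithelia, stood at 7.95 and 8.53, a response of 0.59 at the edge of 1.5-fold. *Pdgfb*, the B chain of platelet-derived growth factor, stood at 7.97 and 7.09, a response of -0.88, and *Hbegf*, a ligand of the EGF receptor, at 10.59 and 9.90, a response of -0.68. *Ereg*, a ligand of the same receptor, had 0.45 and *Vegfa* 0.31. The 18 bright members had a median of 0.00. *Sesn1*, a stress-induced inhibitor of mTORC1, had -0.70, *Plk2*, a polo-like kinase, -0.60 and *Itga5*, the fibronectin receptor chain, -0.63.

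Abundant structural genes had small responses. Of 20 genes of the actin cytoskeleton, all bright, 17 were below 0, with a median of -0.12, against 53.5% and a median of -0.01 over all bright genes. They had a highest value of 0.08 for *Actg2* and a lowest of -0.24 for *Tgfb1i1*. The 10 housekeeping genes measured had a median of -0.11, 7 of them below 0, from *Rplp0* at -0.27 to *Gusb* at 0.17. The 2 lists share *Actb*, at -0.21. The brightest decile of genes had a median of -0.02. *Ccn2*, *Ankrd1* and *F3*, targets of YAP that respond to cell tension, had -0.46, -0.52 and -0.49, while the 15 genes of that list had a median of 0.00. None of the bright reactive astrocyte, interferon-stimulated or heat shock genes reached 1.5-fold, with bright medians of 0.02, 0.00 and -0.02. Over all bright genes, 0.735% were at least that much higher and 0.408% lower.

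The remaining lists, of feedback, growth control and stress genes, held few genes past 1.5-fold, as did all genes (1.23% higher and 0.757% lower). Of 18 MAP kinase phosphatases and Sprouty genes, which restrain ERK signalling, none passed it, with *Spry2* highest at 0.56 and *Dusp6* lowest at -0.40. Of 10 ID and HES/HEY repressors, all bright, 6 were below 0, against 53.5% of all bright genes, with *Hes5* highest at 0.24 and *Id1* lowest. In the list of TGF-beta and BMP signalling, *Tgfb3* was highest at 0.23 and the inhibitory *Smad6* lowest at -0.41. Of 21 cell cycle genes 15 were below 0, against 50.3% of all genes, with a bright median of -0.02, and the cyclin-dependent kinase inhibitor *Cdkn1b* was highest at 0.47 and *Myc* lowest. In prostaglandin metabolism *Ptges* was highest at 0.29 and the degrading enzyme *Hpgd* lowest at -0.41, with *Ptgs2*, the inducible cyclooxygenase, at 0.04. The lowest interferon-stimulated gene was the dim *Mx2* at -0.63 and the lowest heat shock or unfolded protein gene *Ddit3* at -0.39. Among the remaining marker lists, the endothelial *Cdh5* had 0.56 and the oligodendrocyte factor *Sox10*, which was dim, -0.61; 4 of 10 endothelial and 5 of 11 oligodendrocyte markers were bright.

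**Figure D5:**
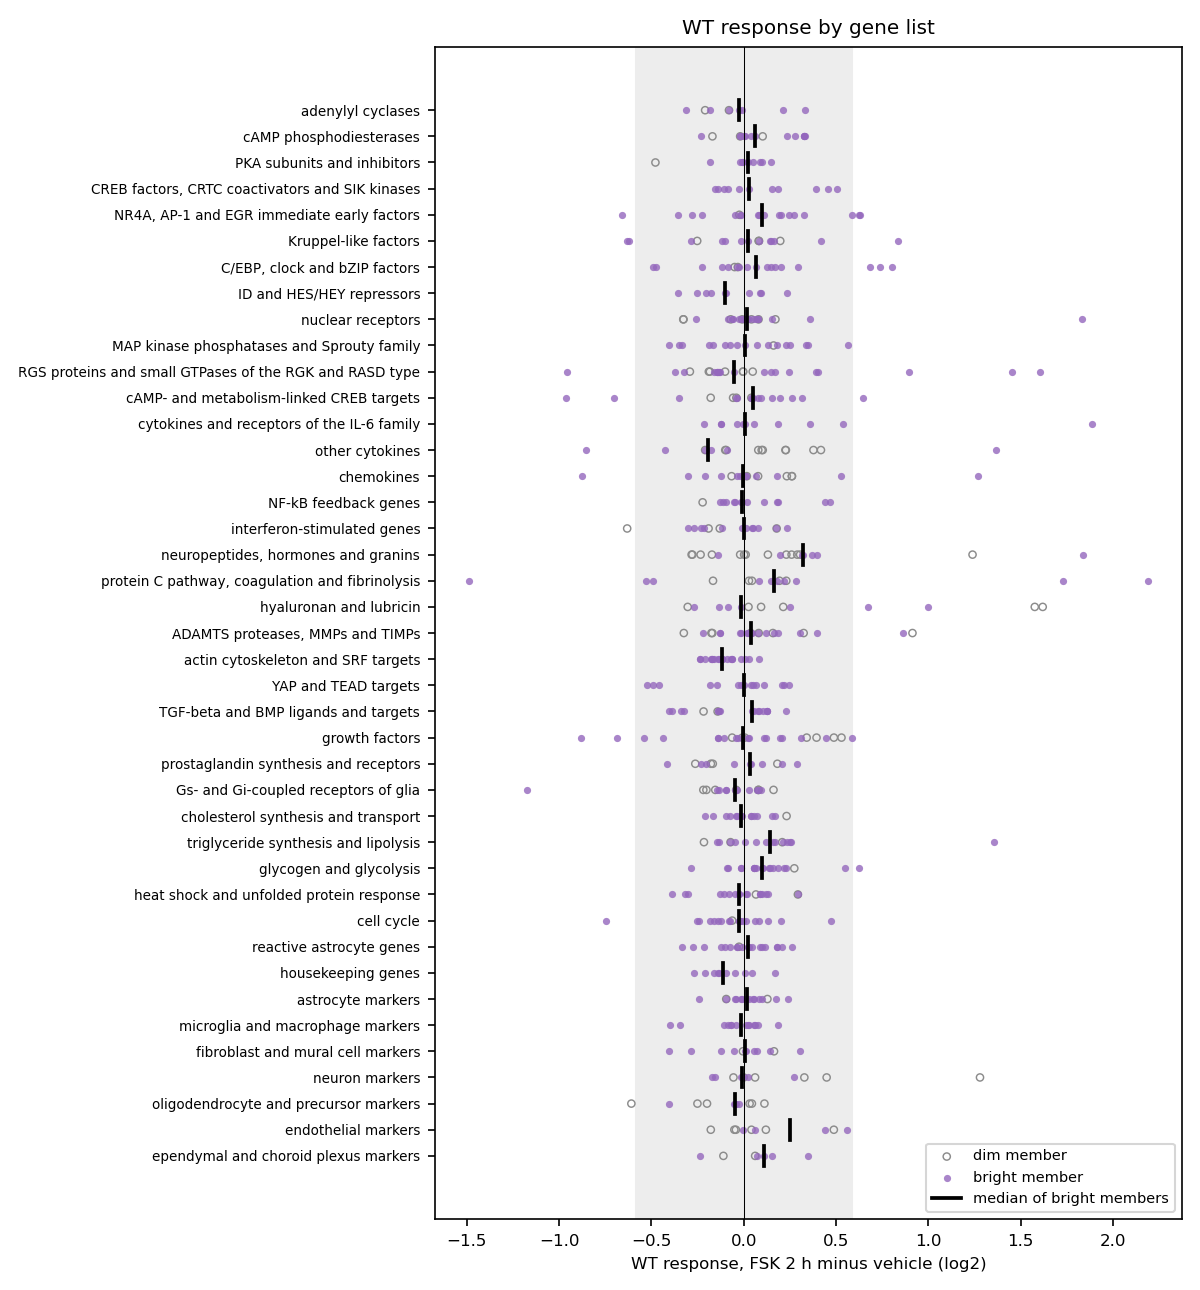
WT response (log2, x axis) of the members of 34 lists of pathways and reference genes and 7 lists of cell type markers. Filled points are bright members, open points dim members, black bars the median of the bright members, and the grey band spans less than 1.5-fold; the medians lie between -0.19 and 0.32 while single genes reach 2.19.

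Over the 34 lists together, 567 different genes were measured, of which 28 were at least 1.5-fold higher and 14 lower. The shares over all genes were 1.23% and 0.757%. The lists were drawn up with earlier results of these data known, so that the difference is no result about them. The medians of the bright members lay between -0.19 for the other cytokines and 0.32 for the neuropeptides.

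The remaining bright genes past 1.5-fold belonged to no list. On the higher side these included *Trim25*, a ubiquitin ligase of antiviral signalling, at 0.92, *Jarid2*, a partner of the Polycomb complex, at 0.86, and *Neurl3*, a ubiquitin ligase, at 0.85. *Jade1*, a subunit of a histone acetyltransferase complex, had 0.77. *Mxi1*, an antagonist of Myc, had 0.67 and *Plagl1*, an imprinted zinc finger factor, 0.66, and their second probe sets gave 0.99 and 0.39. On the lower side, 37 of the 46 bright genes were annotated as protein-coding, and on the higher side 80 of the 83. The share over all bright genes was not counted here, so nothing is read from this difference. *9930111J21Rik2*, a predicted gene of the interferon-inducible GTPase kind, stood at 6.51 and 5.22, 2.43-fold lower. Under a floor at the median signal its response was -0.70 and no longer past 2-fold. *Gm5801*, *Gm10335*, *Gm7736* and *Gm16519*, annotated as pseudogenes, had responses between -0.91 and -0.83, and *Zfp960* had -0.91. *Dzip1l*, *Trim34a*, *Spdl1* and *Mir763* followed between -0.77 and -0.74, and a second probe set of *Trim34a* gave 0.40. *Srsx* and *Srsy*, members of a family of near-identical copies on the sex chromosomes, had -0.86 and -0.60. Signals of such genes may be shared with their copies and are uncertain.

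Of the 16 dim genes at least 2-fold higher, 4 encode sensory receptors, and of the 10 lower ones another 4. Such receptors made up 1409 (12.9%) of the 10894 dim genes. The median signal was reached on no array by 11 of the 27 higher genes and by 9 of the 13 lower ones, and by 7 of the higher genes on the WT FSK array only. Of these 7, *Il6* and *Cxcl1* were bright by their mean, and *Prg4*, *Has1*, *Apold1*, *Tac1* and *Olfr584* were dim. *Apold1*, an early response gene of endothelial cells, stood at 5.50 and 6.75, 2.37-fold higher. Under a floor at the median signal *Apold1* had 0.94 and *Olfr584* 0.18. Among genes that stayed below the median on all arrays were *Nefl*, a neurofilament chain, at 3.58 and 4.86, *Zfp273* at 3.85 and 5.10, *Svs3b* at 3.06 and 4.26, *Gm4841* at 3.02 and 4.16, *Gm11564* at 4.71 and 5.78, *Cyp3a57*, a cytochrome P450, at 2.54 and 3.59 and *H4c14*, a histone H4 gene, at 4.17 and 5.19. The highest of the neuron markers was *Nefl*, and the 6 bright neuron markers had a median of -0.01.

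Among the lower dim genes, *Vmn1r27*, a vomeronasal receptor, stood at 4.49 and 2.62, 3.65-fold lower, the lowest response of all genes. *Ifi214*, an interferon-inducible gene of the p200 kind, stood at 3.55 and 2.19, *Gm15128* at 5.15 and 3.80, *H2-M9*, a non-classical class I gene, at 4.74 and 3.58, and *Pla2g10os*, a long non-coding RNA, at 4.67 and 3.38. *Olfr111* was the only dim gene of these to reach the median signal with vehicle. It stood at 6.99 with vehicle and 5.46 with FSK in WT, and at 6.37 and 3.87 in CRTC3 KO, so that it was 2.89-fold and 5.66-fold lower in the 2 pairs of arrays. The microRNA genes *Mir1949* and *Mirlet7f-1* stood at 5.76 and 4.18 and at 4.16 and 2.74, and *Mir1946b* at 2.43 and 3.56. A second probe set of *Mirlet7f-1* had a response of 0.06. Such probe sets on total RNA do not separate a mature microRNA from its precursor.

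Families were also taken by symbol. Of 1105 olfactory receptor genes, 23 were bright. Their median response was 0.06 with an SD of 0.31, and 55 (4.98%) were at least 1.5-fold higher and 20 (1.81%) lower, against 1.73% and 1.12% of all dim genes. In the dimmest decile, which also holds other genes, 71 of 2218 were higher and 23 lower. At 2-fold there were 3 on each side, *Olfr130*, *Olfr584* and *Olfr1428* higher and *Olfr111*, *Olfr1491* and *Olfr799* lower. The 285 vomeronasal receptor genes, 11 of them bright, had a median of 0.10, with 18 higher (6.32%) and 4 lower (1.40%) at 1.5-fold and *Vmn1r122* and *Vmn1r27* past 2-fold. In CRTC3 KO the medians of these families were -0.05 and -0.01. None of the bright receptors of either family reached 1.5-fold. Of 484 microRNA genes, 127 of them bright, 10 (2.07%) were at least 1.5-fold higher and 13 (2.69%) lower. The shares were 1.23% and 0.757% of all genes. The 73 small nucleolar RNA genes, 63 of them bright, had a median of 0.09 with none past 1.5-fold. Solute carriers, with 192 bright genes, had a median of 0.02 and 3 higher bright members. The 216 bright zinc finger genes had a median of -0.06 with 1 higher and 2 lower. At 1.5-fold, 0.735% of all bright genes were higher and 0.408% lower, so these small counts are no result about the families.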

How the data were processed

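Total RNA of the 4 samples was read on Affymetrix Mouse Gene 2.0 ST arrays. The deposited values are log2 signals per probe set, which the authors summarised and normalised with RMA (Affymetrix Expression Console, per the submitters' processing notes); versions, and whether further filters were used, were not given in the sources used here. Scanner files were not used here. All 4 columns of the table were mapped to samples. Probe sets were named through GEO's platform annotation and updated through RefSeq gene IDs (GRCm38.p6), where 23328 of the 23521 single-gene probe sets matched.

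Responses are differences of log2 values; a fold is 2 to that power. RMA normalises the arrays together, and its background correction can compress differences of dim genes. Numbers of arrays limit precision: with 1 per condition no test was made. Genes named are all past 2-fold, the 20 bright genes at either end, in each list the bright members past 1.5-fold and the highest and lowest member, in each family those past 2-fold, and otherwise examples chosen after their values were seen. Members and lists were chosen with earlier results of these data known. Alternatives were another scaling, another choice of probe sets, a floor, a running median and other definitions of bright. Scripts ran in Python 3.11.15 with pandas 2.3.3 and numpy 2.4.6, figures with matplotlib 3.10.9, and were tested on simulated data.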

Additional observations from a re-analysis of the deposited data

Results flagged for a closer look

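For 8 genes at least 2-fold different in WT, the response in CRTC3 KO was at least 1.2-fold in the other direction. All 8 were dim. Higher in WT and lower in CRTC3 KO were *Olfr130* (1.28 against -0.27), *Zfp273* (1.26 against -0.58), *Olfr584* (1.20 against -0.57), *Mir1946b* (1.13 against -0.52) and *Olfr1428* (1.08 against -0.44). Lower in WT and higher in CRTC3 KO were *Olfr799* (-1.03 against 0.32), *H2-M9* (-1.16 against 0.42) and *Mirlet7f-1* (-1.42 against 0.96). The difference between genotypes was not tested, since each value rests on 1 pair of arrays.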

How the results depend on the processing

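No paired analysis was possible because each condition had 1 array, and for the same reason no replicate could be left out. Raising values below the median signal to that signal left 12 genes at least 2-fold higher and 3 lower, against 27 and 13. With a threshold of 3-fold, 8 genes were higher and 1 lower. The floor moved the responses of 37 named genes by more than the limit given below and left 106 within it. Among named bright genes it took *9930111J21Rik2* from past 2-fold lower to -0.70. It took *Trim34a* to -0.50 and *Gm7736* to -0.46, both under 1.5-fold. The counts of bright genes stayed within 1.5 times of those given under quantile normalisation, centring, the floor, the mean of all probe sets, a running median and both other definitions of bright. The share of higher bright genes above 0 in CRTC3 KO (86.7%) lay between 79.3% and 88.4%, the share with a TGACG core (54.4%) between 50% and 56.4%, and the share of higher dim genes above 0 in CRTC3 KO between 39.5% and 45.5%; these alternatives were chosen after seeing the data, and the floor gave no value for dim genes. The limit used for a shift was 0.205, the SD of 1 probe set estimated from the genes with 2. With the mean of all probe sets, the responses of *Tcim*, *Irx3*, *Hes5*, *Trim34a* and *Mirlet7f-1* moved by more than this limit. They became 0.35, 0.42, -0.03, -0.17 and -0.68. The median of the hyaluronan list was 0.25 when genes above the median signal on at least 1 array counted as bright. No list median otherwise moved by as much as 0.205. The responses of 2 probe sets of a gene differed with an SD of 0.290, and with 1 array a condition the spread between cultures is unknown.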
